A study of Arabidopsis thaliana with 12 samples.

Results

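The microRNAs (miRNAs) of Arabidopsis thaliana that carry 3-digit family numbers of 400 and above were followed across organs and in a mutant of 3 Dicer-like (DCL) genes. Members were taken by number alone. Every line of the deposited miRNA tables with a 3-digit family number of 400 or more was kept, and the lines of miR403, miR408, miR780, miR827, miR845 and miR857 were left out. This gave 88 of the 275 lines, called rows here, with 60 different family numbers. A number follows the order of naming, and neither the age nor the conservation of a miRNA was measured. Small RNA and mRNA sequencing (sRNA-Seq and mRNA-Seq) had been performed on 3 groups with 2 biological replicates each. The groups were Col-0 leaves (rosette and cauline leaves of the wild-type accession Col-0), dcl234 flowers (floral buds of dcl2-1 dcl3-1 dcl4-2t triple mutants in the Col-0 background) and Col-0 flowers (floral buds of Col-0). All plants were 4 to 6 weeks old and grew under long days. Each replicate was a separate pool of tissue, and the leaf and flower pools of Col-0 came from the same plants. Levels are given for miRNAs in RPM (reads-per-million, relative to genome-matching reads) and for mRNAs in TPM (transcripts-per-million). A row missing from a table was set to 0.

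Plant miRNAs are cut by DCL1 from hairpins folded by a longer transcript, and they guide ARGONAUTE proteins to complementary mRNAs. DCL2, DCL3 and DCL4 mostly cut long double-stranded RNA into small interfering RNAs (siRNAs). Recently arisen MIR genes are often weakly expressed and often fold into long, nearly perfect helices because they come from inverted duplications of protein-coding genes. Some of those helices are known to be cut by DCL4 rather than DCL1, as described for miR822, miR839 and miR869.

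Of the 88 rows, 87 could be matched to a mature sequence of the RefSeq annotation of TAIR10.1, from 72 MIR genes. The unmatched row is miR472, for which the annotation names both arms while the tables list miR472-3p separately. The following sequences from RefSeq belong to the rows that the results turn on, 5′ to 3′, with the seed (bases 2 to 8) in capitals. The first set holds the most abundant row, miR858, which covers 2 annotated copies shifted by a base against each other, and miR831.
miR858a: uUUCGUUGucuguucgaccuu
miR858b: uUCGUUGUcuguucgaccuug
miR831-3p: uGAUCUCUucguacucuucuug
The second set holds rows that were high in leaves.
miR841a-5p: uACGAGCCacuugaaacugaa
miR822-5p: uGCGGGAAgcauuugcacaug
miR863-5p: uUAUGUCUuguugaucucaau
miR850: uAAGAUCCggacuacaacaaag
The third set holds rows that were low in dcl234 flowers, with the further sequences of the MIR829 hairpin and the partner of miR447. The row of miR447 was matched to miR447b, although other RefSeq names of this number had no row, so it may hold reads of other MIR447 hairpins.
miR829-3p.1: aGCUCUGAuaccaaaugauggaau
miR829-3p.2: cAAAUUAAagcuucaagguag
miR829-5p: aCUUUGAAgcuuugauuugaa
miR840-5p: aCACUGAAggaccuaaacuaac
miR840-3p: uUGUUUAGgucccuuaguuuc
miR447b: uUGGGGACgagauguuuuguug
miR447a.2-3p: uAUGGAAGaaauuguaguauu
miR839-5p: uACCAACCuuucaucguuccc
The fourth set holds rows that were high in dcl234 flowers, and miR833a-5p, which shares its seed with miR833b.
miR867: uUGAACAUgguuuauuaggaa
miR775: uUCGAUGUcuagcagugcca
miR833b: uGUUUGUUgacaucggucuag
miR833a-5p: uGUUUGUUguacucggucuagu

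The 87 matched rows held 89 distinct mature sequences, of which 66 were 21 nt, 18 were 22 nt, 2 were 20 nt and 3 were 24 nt long. A 5′ uridine, the base preferred by ARGONAUTE1, began 63 of the 89 sequences (70.8%), and 16 began with A, 7 with C and 3 with G. Only 2 seeds were shared between rows, GUUUGUU by miR833 and miR833a-5p and UUUUCCU by miR472-3p and miR865-3p. The 3 sequences of 24 nt were those of miR404, miR405 and miR829-3p.1. The authors counted only reads of 20 to 22 nt that lay within 2 nt of an annotated miRNA, so the RPM of these 3 rows come from reads shorter than the RefSeq sequence. Predicted folds were computed for 71 hairpins of 80 to 689 nt. Their longest helix held between 17 and 99 base pairs with a median of 39, and 5 hairpins reached 80 pairs. Pairs were counted across bulges and loops of at most 3 bases a side, so such a helix need not be unbroken. The longest helices included those of MIR869 (99 pairs), MIR822 (97 pairs), MIR863 (91 pairs) and MIR839 (82 pairs).

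The RPM of a single read, taken from the steps between low values, corresponded to a depth of 8.79 and 4.06 M reads for Col-0 leaves, 10.2 and 8.59 M reads for dcl234 flowers, and 13.2 and 13.8 M reads for Col-0 flowers. A count of 0 therefore allowed up to 0.739 RPM in the shallowest library (3 reads) and up to 0.218 RPM in the deepest, for counting error only. The organs fitted their labels in the mRNA libraries. The bud regulators AP3, PI, AG and SEP3 were at 0 to 3.31 TPM in Col-0 leaves and at 17.0 to 144 TPM in Col-0 flowers, and the leaf genes RBCS1A, CA1, CAB2 and RCA were all called higher in leaves. Quantile normalization ended the calls of RBCS1A, CA1 and CAB2 (adjusted p = 0.0854, 0.0584 and 0.0693 in limma). Those of RBCS1A and CA1 were also lost without the filter on low values (0.347 and 0.0550), when only the 4 leaf and Col-0 flower libraries were fitted (0.254 and 0.0627), and without Col-0 leaf replicate 1, Col-0 flower replicate 1 or Col-0 flower replicate 2 (0.0543 to 0.155). DCL3 mRNA was at 0.400 and 0.370 TPM in dcl234 flowers, against 3.85 and 4.30 TPM in Col-0 flowers (limma, log2 difference -1.87, adjusted p = 0.0140). That call was lost without any 1 of the 4 libraries, with adjusted p from 0.0719 to 0.238. The level of DCL2 was 1.04 and 1.6 TPM in dcl234 flowers, against 2.07 and 3.26 TPM in Col-0 flowers, and that of DCL4 was 3.12 and 2.87 TPM in dcl234 flowers, against 3.20 and 4.51 TPM in Col-0 flowers. Neither was called in dcl234 flowers, and where the insertions lie in these genes is not given in the sources used here, so their TPM do not check the alleles. The 4 bud regulators were higher in dcl234 flowers than in Col-0 flowers by a median of 1.07 on the log2 scale and the 4 leaf genes by 0.76, against 0.50 for all genes, and limma called 0 of the 8 (5 higher at an unadjusted p under 0.05). The part of such differences in the miRNA levels was not tested.

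These miRNAs were a small part of the miRNA pool. Their RPM summed to 502 and 481 in Col-0 leaves, 1168 and 1284 in dcl234 flowers, and 664 and 637 in Col-0 flowers. The replicates of each group lay close together and no groups overlapped, with the mutant highest and leaves lowest. Expressed as a share of all miRNA RPM, the order changed, with 0.635% and 0.645% for Col-0 leaves, 1.27% and 1.30% for dcl234 flowers, and 1.42% and 1.30% for Col-0 flowers. The sum of the 88 rows in dcl234 flowers was 1.89 times that in Col-0 flowers, and the sum of the other 187 rows was 2.00 times that in Col-0 flowers. With 2 libraries against 2, the exact two-sided permutation test cannot go below p = 0.33, and both contrasts of the summed RPM gave this value.

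**Figure D1:**
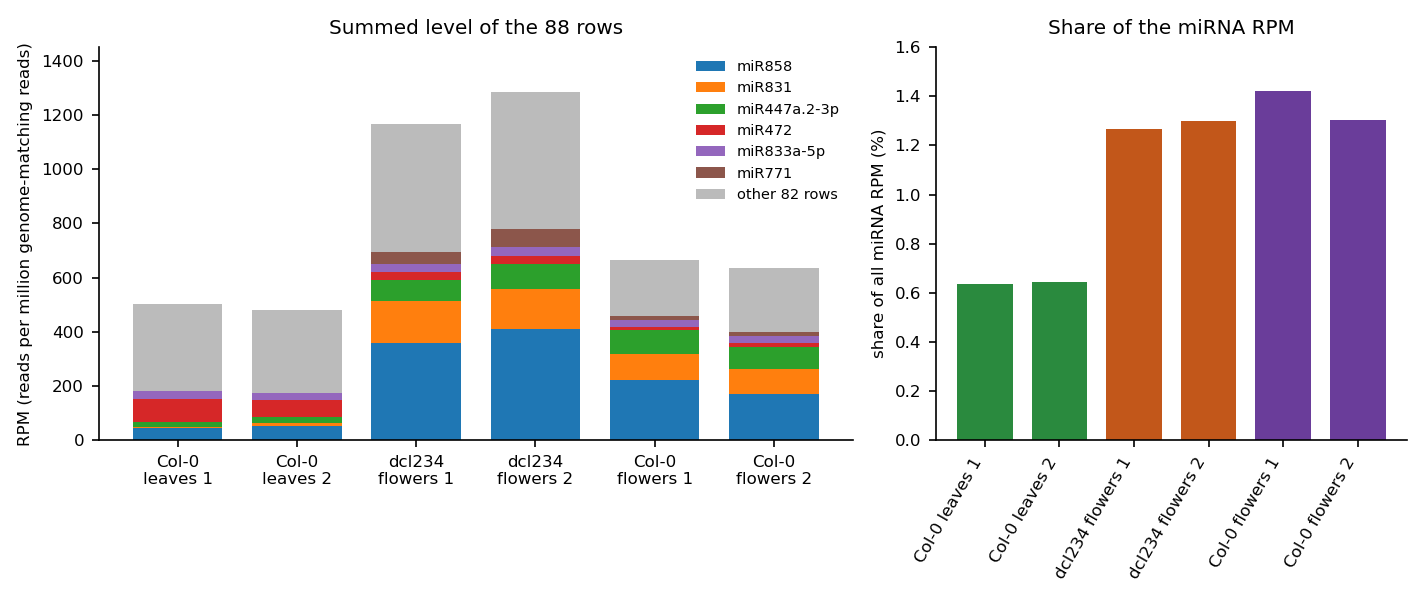
Left, summed RPM of the 88 rows in each of the 6 sRNA-Seq libraries, stacked by the 6 rows with the highest mean and the other 82 rows. Right, the same sum as a share of all miRNA RPM. In RPM the dcl234 flowers stand highest (1168 and 1284), whereas their share (1.27% and 1.30%) lies beside that of Col-0 flowers (1.42% and 1.30%) and above that of Col-0 leaves (0.635% and 0.645%).

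A few rows carried most of the signal. The row of miR858, a regulator of MYB factors of flavonol synthesis, had 44.3 and 53.4 RPM in Col-0 leaves, 360 and 412 RPM in dcl234 flowers, and 224 and 170 RPM in Col-0 flowers. It made up 9.94% of the sum in Col-0 leaves, 31.5% in dcl234 flowers and 30.3% in Col-0 flowers. Without it, leaves and flowers were close, at 457 and 428 RPM in Col-0 leaves and 440 and 467 RPM in Col-0 flowers. The next rows by mean level were miR831, miR447a.2-3p and miR472, and these 4 rows held 50.2% of the mean sum. Only miR858 had a mean over 100 RPM, and 17 rows had a mean of at least 10 RPM.

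At the other end, 34 of the 88 rows had a mean under 1 RPM over the 6 libraries and entered no test across families. They included miR828, a trigger of tasiRNAs that also targets MYB mRNAs, which was at 0.0755 RPM in 1 Col-0 flower library and at 0 in the other 5. The row of miR400 was at 0.190 and 0.123 RPM in Col-0 leaves, 0 and 0 in dcl234 flowers, and 0.0755 and 0.145 RPM in Col-0 flowers. All of these values are below the 3-read limit of their library. Of the 88 rows, 49 were above 0 in all 6 libraries, 25 were at 0 in both Col-0 leaf libraries, 5 in both dcl234 flower libraries and 9 in both Col-0 flower libraries. The Col-0 leaf libraries listed 59 and 59 of the 88 rows, and 196 and 197 of all 275. These numbers were 76 and 78, and 241 and 238, for dcl234 flowers, and 74 and 70, and 228 and 228, for Col-0 flowers. Depth ran from 4.06 M reads in Col-0 leaf replicate 2 to 13.8 M in Col-0 flower replicate 2, and its part was not tested. The median of the row means was 1.81 RPM for the 88 rows and 1.59 RPM for the other 187, and the highest was 211 RPM against 24280 RPM.

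The first comparison asked how these miRNAs differ between organs. Of the 54 rows with a mean of at least 1 RPM, 15 were higher in Col-0 leaves and 16 lower than in Col-0 flowers, at an adjusted p under 0.05 in limma on log2(RPM + 1) and at least a 2-fold difference. Over all 156 miRNA rows tested, 35.9% were called higher and 21.8% lower. The median log2 difference was -0.03 for the 54 rows and 0.30 for all 156. Of the 54 rows, 19 were under 1 RPM in all libraries of at least 1 group, so their mean passed only through the group where they were high. With no filter, 15 of 88 rows were called higher and 17 lower, against 19.3% and 12.7% of all 275 rows. Of the 19 members that reached 1 RPM in all 6 libraries, 4 were called higher and 5 lower, against 40.9% and 14.0% of the 93 such rows. Both leaf libraries lay above both flower libraries for 24 of the 54 rows and below them for 20, against 48.1% and 32.1% of the 156. Each miRNA level comes from a mixed tissue, in which fewer cells of a type and less RNA per cell cannot be told apart. RPM are relative to all genome-matching reads, so higher and lower in leaves refer here to relative levels only. With absolute levels from spike-ins, the authors found miRNA families that were decreased in leaves but none that were increased. Their comparison was limited to 93 families, which had to reach 1 RPM throughout the replicates. Of the 15 rows called higher in leaves, only miR472, miR825, miR846 and miR846-5p reached 1 RPM in all 6 libraries. The authors' result therefore does not cover the other rows called higher. Whether the rows called higher in leaves differ in absolute level was not tested. Scaled to the mean miRNA total of the libraries, 14 members were called higher and 20 lower, against 25.0% and 34.6% of all 156 rows.

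Among the rows higher in leaves, both arms of 4 hairpins rose together. The row of miR841, from a gene opposite to the histone gene HTA4, had 28.6 and 24.9 RPM in Col-0 leaves, against 0.755 and 0.218 RPM in Col-0 flowers (log2 difference 4.24 ± 0.35, moderated SE from limma, n = 2 each). Its other arm, miR841-3p, had 13.4 and 7.63 RPM in Col-0 leaves, against 0.831 and 1.93 RPM in Col-0 flowers. No leaf library came near the flower libraries. The row of miR822, whose targets encode cysteine-rich DC1-domain proteins, had 22.9 and 29.3 RPM in Col-0 leaves, against 0.906 and 1.53 RPM in Col-0 flowers (3.62 ± 0.30, SE), and miR822-3p had 8.19 and 4.43 RPM against 0.680 and 0.291 RPM in the same order.

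The row of miR846, a miRNA against jacalin-type lectin mRNAs, had 39.0 and 34.8 RPM in Col-0 leaves, against 3.25 and 2.94 RPM in Col-0 flowers (3.21 ± 0.31, SE). The other arm, miR846-5p, had 19.5 and 15.3 RPM in Col-0 leaves, against 2.42 and 3.20 RPM in Col-0 flowers. Both arms were separated by several fold without overlap. The row of miR863-5p had 22.6 and 20.8 RPM in Col-0 leaves, against 1.21 and 0.582 RPM in Col-0 flowers (3.60 ± 0.33, SE). The opposite arm, miR863-3p, known to act on the mRNA of the processing factor SERRATE, had 2.73 and 3.45 RPM in Col-0 leaves and was at 0 in both Col-0 flower libraries, which made it at least 13.9-fold higher in leaves, with the flower libraries at a limit of 3 reads each.

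Neighbouring hairpins were among these rows. The hairpins of miR850 and miR863 lie 669 bases apart on the plus strand of chromosome 4, within the annotated transcript AT4G13495, with the mature miR850 at chr4:7845756-7845777 and miR863-5p at chr4:7846644-7846664. The row of miR850 had 21.2 and 9.85 RPM in Col-0 leaves, against 0.906 and 1.09 RPM in Col-0 flowers (2.96 ± 0.35, SE), so both miRNAs of this transcript were higher in leaves. The row of miR847, which acts on the auxin-response repressor IAA28, had 10.9 and 9.60 RPM in Col-0 leaves, against 0.378 and 0.0727 RPM in Col-0 flowers, where it rested on 5 and 1 reads (3.21 ± 0.27, SE).

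The row with the highest level in leaves was miR472, a miRNA against mRNAs of CC-NBS-LRR immune receptors. It had 85.3 and 61.8 RPM in Col-0 leaves, against 11.3 and 12.6 RPM in Col-0 flowers (2.50 ± 0.33, SE). The row listed as miR472-3p was far lower, at 1.48 and 0.862 RPM in Col-0 leaves and 0.227 and 0.364 RPM in Col-0 flowers, and was not called (adjusted p = 0.0895 in limma). The row of miR825 had 29.7 and 23.9 RPM in Col-0 leaves, against 3.93 and 4.94 RPM in Col-0 flowers (2.35 ± 0.35, SE). The remaining rows called higher were miR843, miR838 and miR833. The hairpin of miR838 lies within DCL1, the enzyme that cuts most miRNAs, and miR838 had 4.67 and 4.19 RPM in Col-0 leaves, against 1.06 and 0.872 RPM in Col-0 flowers (1.47 ± 0.27, SE), while DCL1 mRNA was at 1.68 and 1.39 TPM in Col-0 leaves and 2.13 and 3.01 TPM in Col-0 flowers and was not called. Adjusted p over the 15 rows ran from 2.19e-06 to 0.00871 in limma. The call of miR833 was lost without Col-0 flower replicate 2 (adjusted p = 0.106 in limma), without Col-0 leaf replicate 2, where it fell below 2-fold (0.90), and on the miRNA-total scale.

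**Figure D2:**
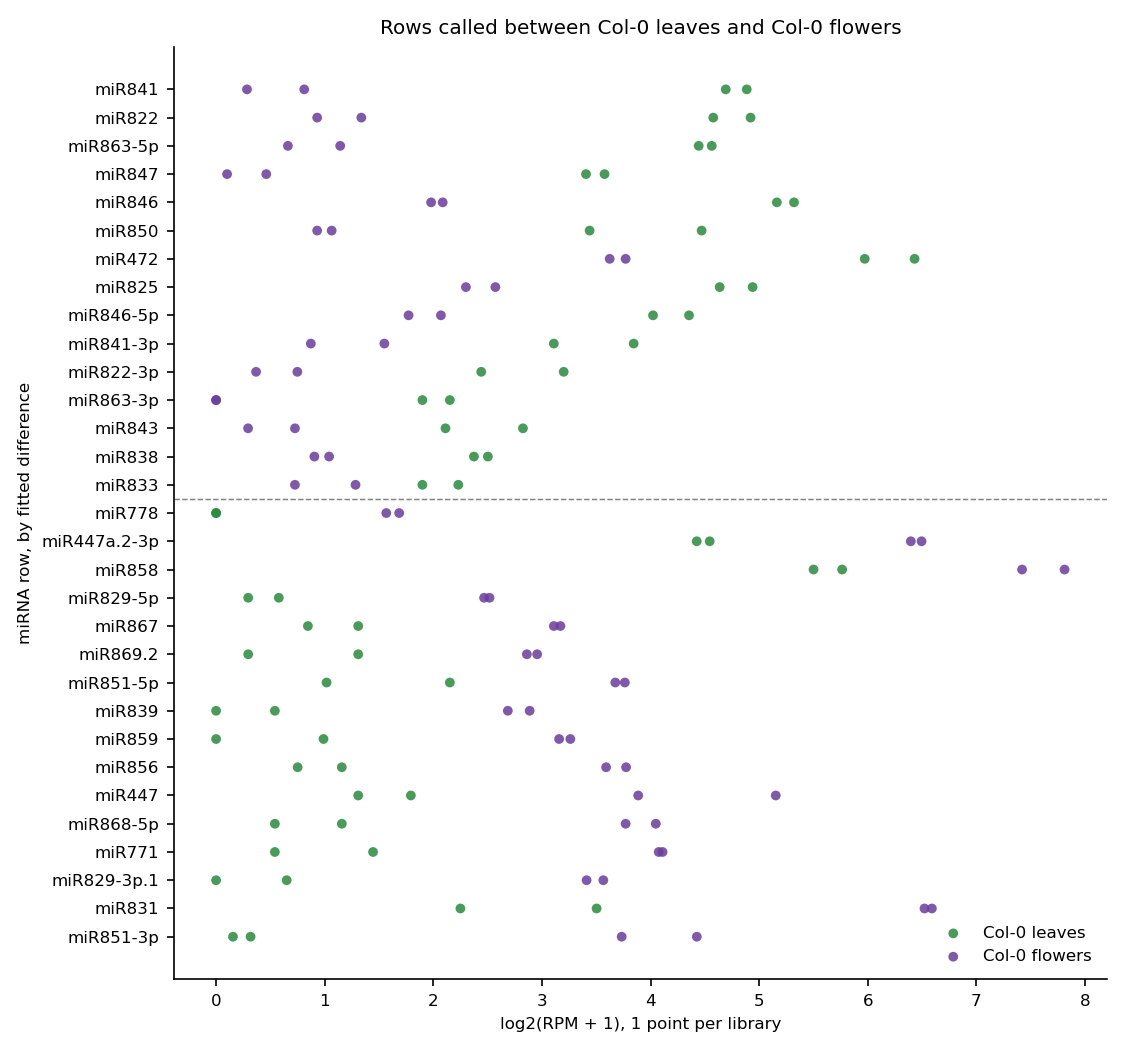
Level of the 31 rows called between Col-0 leaves (green) and Col-0 flowers (purple) on a log2(RPM + 1) axis, with 1 point per library and rows ordered by fitted difference. The 15 rows above the dashed line were higher in leaves, from miR841 (4.24 on the log2 scale) down, and the 16 rows below it were lower, down to miR851-3p (-3.84), with no overlap of replicates in either set.

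Rows lower in leaves included the most abundant ones of flowers. In addition to miR858 (log2 difference -1.98 ± 0.31, SE), this held for miR831, which had 3.76 and 10.3 RPM in Col-0 leaves, against 95.4 and 90.9 RPM in Col-0 flowers (-3.68 ± 0.41, SE; -3.05 without Col-0 leaf replicate 1 and -4.31 without replicate 2). The second sequence of that hairpin, miR831-5p, was at 0 in both Col-0 leaf libraries and at 0.831 and 1.31 RPM in Col-0 flowers. Likewise, miR447a.2-3p had 20.5 and 22.3 RPM in Col-0 leaves, against 89.2 and 83.3 RPM in Col-0 flowers. The row of miR447, a miRNA against 2-phosphoglycerate kinase mRNA, had 2.47 and 1.48 RPM in Col-0 leaves, against 13.8 and 34.6 RPM in Col-0 flowers (-2.97 ± 0.42, SE). Its replicates differed more than those of most rows, but the organs did not overlap. The difference was -3.60 without Col-0 flower replicate 1 and -2.34 without replicate 2.

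A second pair of neighbouring hairpins stood among these rows. Those of miR771 and miR851 lie 118 bases apart on the minus strand of chromosome 3. The row of miR771 had 0.455 and 1.72 RPM in Col-0 leaves, against 15.9 and 16.3 RPM in Col-0 flowers (-3.10 ± 0.37, SE). For miR851, the 3p arm had 0.114 and 0.246 RPM in Col-0 leaves, against 12.3 and 20.5 RPM in Col-0 flowers (-3.84 ± 0.32, SE), and the 5p arm had 1.02 and 3.45 RPM in Col-0 leaves, against 11.8 and 12.6 RPM in Col-0 flowers (-2.13 ± 0.39, SE). All 3 small RNAs of this pair of hairpins were thus lower in leaves. Further close neighbours on 1 strand include the hairpins of miR859 and miR774a (92 bases) and of miR842 and miR846 (109 bases). The row of miR774a was at 0 in both Col-0 leaf libraries and at 0.0755 and 0 RPM in Col-0 flowers. That of miR842 had 0.228 and 1.23 RPM in Col-0 leaves, against 0 and 0.0727 RPM in Col-0 flowers. Both were too low to be tested.

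The row of miR856, a miRNA against the cation/proton exchanger CHX18, had 0.683 and 1.23 RPM in Col-0 leaves, against 12.7 and 11.1 RPM in Col-0 flowers (-2.73 ± 0.32, SE). The row of miR859 had 0 and 0.985 RPM in Col-0 leaves, against 7.93 and 8.59 RPM in Col-0 flowers. The row of miR868-5p had 0.455 and 1.23 RPM in Col-0 leaves, against 15.6 and 12.6 RPM in Col-0 flowers. In all 3 rows the leaf libraries stood far below the flower libraries. The row of miR867 had 0.797 and 1.48 RPM in Col-0 leaves, against 8.00 and 7.63 RPM in Col-0 flowers, and 2 rows of the MIR829 hairpin, miR829-3p.1 (-3.16 ± 0.30, SE) and miR829-5p (-2.06 ± 0.27, SE), were called lower as well. The smallest of these differences was that of miR778, a miRNA against mRNAs of the histone methyltransferases SUVH5 and SUVH6, which was at 0 in both Col-0 leaf libraries and at 1.96 and 2.22 RPM in Col-0 flowers, or at least 3.87-fold lower in leaves with these at 3 reads each. Adjusted p over the 16 rows ran from 2.19e-06 to 0.000498 in limma. All 16 calls were kept under leave-one-out, with the miRNA-total scale and with quantile normalization.

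The rows known for DCL4 processing did not share an organ. Whereas both miR822 arms were higher in leaves, miR839 had 0.455 and 0 RPM in Col-0 leaves, against 5.44 and 6.40 RPM in Col-0 flowers (-2.52 ± 0.29, SE). The row of miR869.2 had 0.228 and 1.48 RPM in Col-0 leaves, against 6.27 and 6.76 RPM in Col-0 flowers (-2.11 ± 0.35, SE). The row of miR869.1 was under 0.5 RPM in all 6 libraries. Several rows with well-described targets were not called between the organs, among them miR773, miR823, miR824-5p and miR824-3p. The more abundant miR833a-5p was not called either, at 26.8 and 26.1 RPM in Col-0 leaves and 23.6 and 26.0 RPM in Col-0 flowers (adjusted p = 0.821 in limma). The row of miR824-5p was called lower in leaves on the miRNA-total scale (-1.17, adjusted p = 0.0123 in limma) and relative to the miRNA total (-1.39, adjusted p = 0.0264), and miR472-3p was called higher with quantile normalization (1.10, adjusted p = 0.0312).

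The second comparison asked which of these miRNAs depend on DCL2, DCL3 and DCL4. It uses the same 2 Col-0 flower libraries as the first. Of the 54 rows tested, 5 were lower and 21 higher in dcl234 flowers than in Col-0 flowers, when 8.33% of all 156 rows were called lower and 48.7% higher. The median log2 difference was 0.87 for the 54 rows and 0.96 for all 156, and total miRNA RPM was 2.00 times that of Col-0 flowers, so a row with an unchanged share of the miRNA pool had a higher RPM. Scaled to the mean miRNA total, the median of all 156 rows was 0.29, and 8 members were called lower and 7 higher, against 12.2% and 16.7% of all 156. With no filter, 5 of 88 rows were called lower and 19 higher, against 2.91% and 25.8% of all 275. Of the 19 members that reached 1 RPM in all 6 libraries, 1 was called lower and 8 higher, against 6.45% and 57.0% of the 93 such rows. Both dcl234 libraries lay below both Col-0 flower libraries for 9 of the 54 rows and above them for 38, against 12.2% and 76.3% of the 156. With quantile normalization, 7 were called lower and 6 higher (share of all rows not given here). All 5 lower calls were kept there, but only 6 of the 21 higher ones. Each row is therefore given in RPM and, where it matters, on the miRNA-total scale. Both scales are relative, and absolute levels were not tested. The authors found fewer miRNA families increased in dcl234 flowers in absolute terms than in RPM.

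The largest fall was that of miR829-3p.1, at chr1:11834094-11834117 on the minus strand. It had 0 and 0.233 RPM in dcl234 flowers, against 10.8 and 9.64 RPM in Col-0 flowers (log2 difference -3.34 ± 0.30, SE, n = 2 each, adjusted p = 3.96e-05 in limma). In dcl234 flowers this was 0 and 2 reads, and in Col-0 flowers 143.6 and 132.6 reads after division among loci. The other sequences of the hairpin were present in the mutant. The row of miR829-5p had 7.08 and 6.64 RPM in dcl234 flowers, against 4.53 and 4.73 RPM in Col-0 flowers (0.48 ± 0.27, SE, adjusted p = 0.136 in limma), and miR829-3p.2, which directly follows miR829-3p.1 in the hairpin, had 0.590 and 1.98 RPM in dcl234 flowers, against 0.378 and 0.218 RPM in Col-0 flowers. The ratio of miR829-3p.1 to miR829-5p was 0 and 0.0351 in dcl234 flowers, against 2.39 and 2.04 in Col-0 flowers. The annotated 24 nt of miR829-3p.1 is the length typical of products of DCL3, but only shorter reads entered this row, and reads of 24 nt were not analysed here.

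Both arms of miR840 were low in the mutant. The MIR840 hairpin has a longest predicted helix of 63 pairs and overlaps the gene AT2G02750, and miR840 acts on mRNA of the neighbouring WHY3, a DNA-binding protein. The row of miR840-5p had 1.08 and 0.931 RPM in dcl234 flowers, against 8.68 and 10.4 RPM in Col-0 flowers (-2.39 ± 0.35, SE), with a mean 9.48 times as high in Col-0 flowers. The row of miR840-3p had 0.394 and 0.233 RPM in dcl234 flowers, against 2.94 and 2.18 RPM in Col-0 flowers (-1.43 ± 0.37, SE). The ratio of the 5p to the 3p arm, 2.75 and 4.00 in dcl234 flowers and 2.95 and 4.77 in Col-0 flowers, overlapped between the genotypes. On the miRNA-total scale the differences were -3.14 and -1.98. The call of miR840-3p in RPM was lost without dcl234 replicate 2 (adjusted p = 0.0607) and without Col-0 flower replicate 1 (adjusted p = 0.0689 in limma).

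Rows of the miR447 family differed. Some reads of the row of miR447 were divided among loci, so it may hold reads of MIR447a as well as MIR447b. The row of miR447 had 3.77 and 6.05 RPM in dcl234 flowers, against 13.8 and 34.6 RPM in Col-0 flowers (-1.98 ± 0.42, SE, adjusted p = 0.00207 in limma). It was called without each library in turn, at -2.62 without Col-0 flower replicate 1 and -1.35 without Col-0 flower replicate 2. The row of miR447a.2-3p, a different stretch of the related MIR447a hairpin, had 78.2 and 90.6 RPM in dcl234 flowers, against 89.2 and 83.3 RPM in Col-0 flowers (-0.03 ± 0.31, SE). The genotypes overlapped for this row in RPM, while on the miRNA-total scale it was called lower (-1.02, adjusted p = 0.0240 in limma). The ratio of miR447 to miR447a.2-3p was 0.0482 and 0.0668 in dcl234 flowers, against 0.155 and 0.415 in Col-0 flowers. The row of miR447c-5p was below 0.5 RPM in every library.

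**Figure D3:**
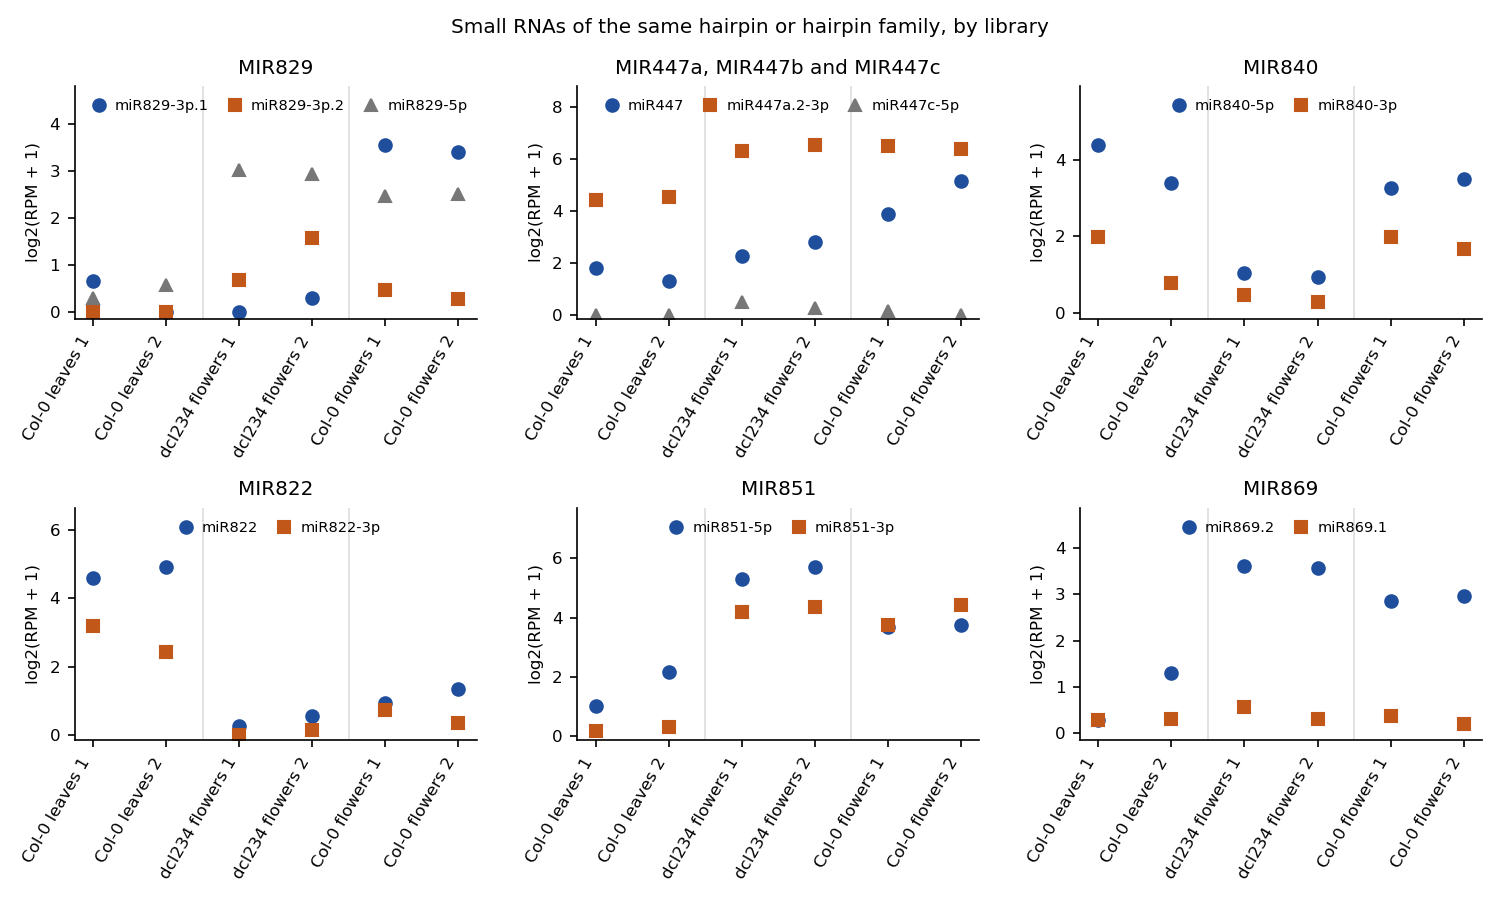
Level of the small RNAs of 6 hairpins or hairpin families in each library on a log2(RPM + 1) axis, with 1 panel per hairpin and 1 symbol per row. In the MIR829 panel the symbol of miR829-3p.1 lies near 0 in dcl234 flowers (0 and 0.233 RPM) and above miR829-5p in Col-0 flowers (10.8 and 9.64 RPM), both MIR840 symbols are low in dcl234 flowers, and in the MIR851 panel miR851-5p lies above miR851-3p in dcl234 flowers.

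Of the 3 families known for DCL4 processing, miR839 was called lower in RPM. It had 2.16 and 2.56 RPM in dcl234 flowers, against 5.44 and 6.40 RPM in Col-0 flowers (-1.04 ± 0.29, SE, adjusted p = 0.00852 in limma; -1.84 on the miRNA-total scale). Its call was lost without dcl234 replicate 1 (adjusted p = 0.0626) and without Col-0 flower replicate 2 (adjusted p = 0.0704), and relative to the miRNA total the difference was -2.28 with an adjusted p of 0.0936 in limma. The row of miR822, at chr5:897287-897307 on the minus strand, had 0.197 and 0.466 RPM in dcl234 flowers, against 0.906 and 1.53 RPM in Col-0 flowers. These are 2 and 4 reads in dcl234 flowers, against 12 and 21 reads in Col-0 flowers, and the log2 difference of -0.73 ± 0.30 (SE, adjusted p = 0.0486 in limma) missed the 2-fold limit. On the miRNA-total scale miR822 was called (-1.18, adjusted p = 0.0136 in limma). Its other arm, miR822-3p, had 0 and 0.116 RPM in dcl234 flowers, against 0.680 and 0.291 RPM in Col-0 flowers. The difference of miR822-3p was -0.48 ± 0.31 (SE) in RPM and -0.73 on the miRNA-total scale, and neither was called. Leaves of dcl234, the organ in which miR822 was abundant in Col-0, were not analysed here.

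The third family was not called. The row of miR869.2 had 11.2 and 10.9 RPM in dcl234 flowers, against 6.27 and 6.76 RPM in Col-0 flowers (0.69 ± 0.35, SE, adjusted p = 0.103 in limma). On the miRNA-total scale the difference was -0.21 and was not called either. Its hairpin has the longest predicted helix of all. Over the tested rows, the longest helix held 54 to 82 pairs for the 5 rows called lower (median 63), 26 to 72 pairs for 20 of the rows called higher (median 40), and 29 to 99 pairs for the 28 not called (median 50). Rows of 1 hairpin share these values, and no test was made of them.

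Among the rows higher in dcl234 flowers, the largest difference was that of miR867. It had 56.5 and 52.2 RPM in dcl234 flowers, against 8.00 and 7.63 RPM in Col-0 flowers (2.65 ± 0.31, SE, adjusted p = 8.47e-05 in limma), or 6.95 times the Col-0 level. The row of miR775, a miRNA against the galactosyltransferase GALT9, had 40.4 and 45.3 RPM in dcl234 flowers, against 6.49 and 7.85 RPM in Col-0 flowers (2.43 ± 0.37, SE). The row of miR856 had 52.7 and 68.4 RPM in dcl234 flowers, against 12.7 and 11.1 RPM in Col-0 flowers (2.25 ± 0.32, SE). These differences exceeded the median of 0.96, and 7 of the 21 rows stayed called on the miRNA-total scale: miR867 (1.72), miR833 (1.64), miR860 (1.51), miR775 (1.5), miR856 (1.30), miR862-5p (1.30) and miR866-3p (1.26). Of these, miR867, miR833 and miR860 were also called with quantile normalization and relative to the miRNA total. Quantile normalization ended the calls of miR775 (1.29, adjusted p = 0.0602 in limma) and miR856 (0.96, adjusted p = 0.0553). Relative to the miRNA total, miR862-5p (2.41, adjusted p = 0.0711) and miR866-3p (1.45, adjusted p = 0.137) were not called.

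The row of miR833 had 9.15 and 8.85 RPM in dcl234 flowers, against 1.43 and 0.654 RPM in Col-0 flowers (2.32 ± 0.30, SE). Its hairpin, MIR833b, lies within MIR833a on the opposite strand of chromosome 1. The more abundant miR833a-5p, with the same seed, had 29.3 and 32.4 RPM in dcl234 flowers, against 23.6 and 26.0 RPM in Col-0 flowers (0.30 ± 0.31, SE), and was not called on either scale. The row of miR860, whose hairpin lies in the ferrochelatase gene FC1, had 9.97 and 11.1 RPM in dcl234 flowers, against 1.36 and 1.49 RPM in Col-0 flowers (2.25 ± 0.31, SE). The row of miR862-5p, whose hairpin lies in the chromatin remodeller gene PKL, had 4.03 and 2.44 RPM in dcl234 flowers, against 0.302 and 0.218 RPM in Col-0 flowers, and miR866-3p had 11.7 and 15.1 RPM against 2.04 and 2.84 RPM in the same order.

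The other 14 calls in RPM were not made on the miRNA-total scale. There miR824-3p (0.97, adjusted p = 0.0384 in limma) and miR852 (0.93, adjusted p = 0.0211) missed only the 2-fold limit. The 14 calls included miR773, which acts on the DNA methyltransferase gene MET2. It had 8.66 and 9.66 RPM in dcl234 flowers, against 3.02 and 2.40 RPM in Col-0 flowers (1.46 ± 0.28, SE, and 0.64 on the miRNA-total scale). Both arms of miR824, a regulator of the stomatal MADS-box factor AGL16, were among them. The row of miR824-3p had 25.0 and 19.2 RPM in dcl234 flowers, against 5.36 and 5.23 RPM in Col-0 flowers (1.86 ± 0.31, SE), and miR824-5p had 19.1 and 20.5 RPM against 5.85 and 5.78 RPM (1.61 ± 0.33, SE) in the same order. For miR823, a miRNA against the chromomethylase gene CMT3, 6.10 and 7.45 RPM in dcl234 flowers stood against 2.34 and 2.87 RPM in Col-0 flowers (1.11 ± 0.31, SE; 0.31 on the miRNA-total scale).

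The row of miR472 had 27.9 and 31.8 RPM in dcl234 flowers, against 11.3 and 12.6 RPM in Col-0 flowers (1.25 ± 0.33, SE). The row of miR838 had 3.34 and 4.07 RPM in dcl234 flowers, against 1.06 and 0.872 RPM in Col-0 flowers (1.26 ± 0.27, SE). The row of miR852 had 7.67 and 7.10 RPM in dcl234 flowers, against 1.51 and 1.74 RPM in Col-0 flowers (1.68 ± 0.27, SE). All 3 were separated from Col-0 flowers in RPM, with differences of 0.30, 0.63 and 0.93 on the miRNA-total scale. Leaving out 1 of the libraries ended 8 of the 21 calls in RPM. Adjusted p in limma was then 0.0608, 0.0998, 0.0515 and 0.0523 for miR472, miR823, miR771 and miR851-5p without dcl234 replicate 2, 0.169 and 0.135 for miR472-3p and miR841-3p without dcl234 replicate 1, 0.0512, 0.142, 0.0760, 0.111 and 0.0592 for miR472, miR472-3p, miR823, miR841-3p and miR862-3p without Col-0 flower replicate 1, and 0.0966 and 0.0519 for miR472-3p and miR865-5p without Col-0 flower replicate 2.

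The arms of miR851 again stood apart. The 5p arm had 38.5 and 51.7 RPM in dcl234 flowers, against 11.8 and 12.6 RPM in Col-0 flowers (1.79 ± 0.39, SE). The 3p arm had 17.4 and 19.7 RPM in dcl234 flowers, against 12.3 and 20.5 RPM in Col-0 flowers (0.21 ± 0.32, SE). The ratio of the 5p to the 3p arm was 2.21 and 2.63 in dcl234 flowers, against 0.957 and 0.614 in Col-0 flowers, without overlap, and it was 9 and 14 in Col-0 leaves, where the 3p arm rested on 1 read in each library. The neighbouring miR771 had 45.9 and 67.2 RPM in dcl234 flowers, against 15.9 and 16.3 RPM in Col-0 flowers (1.73 ± 0.37, SE). On the miRNA-total scale neither miR851-5p (0.84) nor miR771 (0.77) was called.

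The 2 rows with the highest levels moved with the miRNA pool. The row of miR858 differed by 0.98 ± 0.31 (SE) in RPM and by -0.02 on the miRNA-total scale, and miR831, at 154 and 145 RPM in dcl234 flowers and 95.4 and 90.9 RPM in Col-0 flowers, by 0.68 ± 0.41 (SE) and -0.31. Neither was called on either scale, and in RPM miR858 missed only the 2-fold limit (adjusted p = 0.0166 in limma). The RPM difference of miR858 ranged from 0.78 to 1.17 under leave-one-out.

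**Figure D4:**
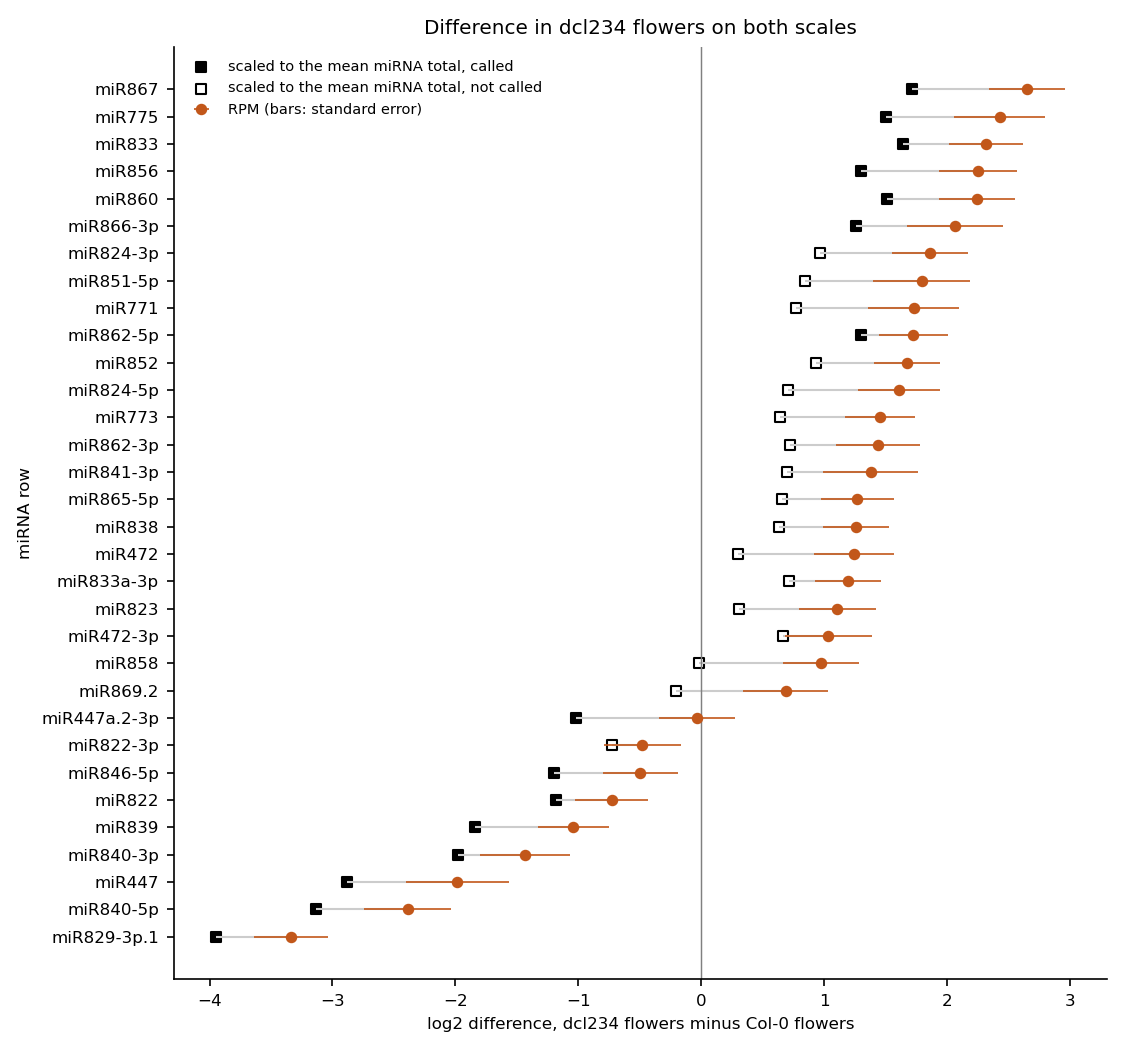
Log2 difference between dcl234 flowers and Col-0 flowers for the rows called on either scale and for miR858, miR869.2 and miR822-3p. Circles with bars give log2(RPM + 1) differences with their moderated standard errors from limma. Squares give the differences after scaling each library to the mean miRNA total, filled where called. Squares lie left of their circles, and 7 rows from miR867 (2.65 and 1.72) to miR866-3p (2.07 and 1.26) stay called above 0, while 8 rows down to miR829-3p.1 (-3.34 and -3.95) are called below 0.

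The mRNA libraries from the same tissues gave the levels of reported targets and of the MIR gene transcripts. Of 28 target genes, 19 had a mean of at least 1 TPM. Between Col-0 leaves and Col-0 flowers, 3 of the 19 were called higher and 6 lower at an adjusted p under 0.05 in limma on log2(TPM + 1), when 12.0% of 19778 genes were called higher and 24.9% lower. The median log2 difference was -0.48 for the 19 targets and -0.31 for all genes. In dcl234 flowers, limma called 0 of the 19 in either direction, with 4 higher and 0 lower at an unadjusted p under 0.05. There the median was 0.51 for the targets and 0.50 for all genes, of which 1.34% were called higher and 0.480% lower.

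The targets of miR858 were low in leaves, where miR858 was low too. MYB111, a MYB regulator of flavonol synthesis, had 0 and 0.1 TPM in Col-0 leaves, against 6.05 and 7.32 TPM in Col-0 flowers (-2.87 ± 0.30, SE, adjusted p = 5.23e-06 in limma). MYB12, of the same group, was at 0 TPM in both Col-0 leaf libraries and at 1.11 and 4.74 TPM in Col-0 flowers (-1.80 ± 0.43, SE, adjusted p = 0.00501). MYB12 was not called without Col-0 flower replicate 2 (-1.08, adjusted p = 0.0582 in limma), and its difference was -2.52 without replicate 1. In dcl234 flowers MYB111 was at 11.9 and 13.8 TPM, and was not called (adjusted p = 0.171 in limma).

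The 2-phosphoglycerate kinase gene AT5G60760, the target of miR447, had 0 and 0.0700 TPM in Col-0 leaves, against 2.95 and 3.59 TPM in Col-0 flowers (-2.04 ± 0.33, SE). In dcl234 flowers, in which miR447 was lower, it had 4.46 and 6.09 TPM (0.55 ± 0.33, SE, adjusted p = 0.276 in limma). MYB82, a target of the nearly undetected miR828, was at 0 in both Col-0 leaf libraries and at 1.30 and 2.17 TPM in Col-0 flowers. CMT3, the target of miR823, had 0.75 and 2.00 TPM in Col-0 leaves, against 4.58 and 7.72 TPM in Col-0 flowers. SUVH5, a target of miR778, had 0.110 and 0.110 TPM in Col-0 leaves, against 1.16 and 1.63 TPM in Col-0 flowers. All 6 of the genes called lower in leaves were thus at 2 TPM or less there. Without Col-0 flower replicate 2, adjusted p in limma was 0.0770 for CMT3 and 0.108 for SUVH5.

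Higher in leaves were AGL16, the glucosinolate enzyme AOP2 and SUMM2, an immune receptor targeted by miR472, which was itself higher in leaves. AGL16 had 13.2 and 11.2 TPM in Col-0 leaves, against 2.72 and 5.67 TPM in Col-0 flowers (1.40 ± 0.34, SE). AOP2 had 3.80 and 3.38 TPM in Col-0 leaves, against 0.75 and 1.61 TPM in Col-0 flowers. SUMM2 had 3.56 and 2.22 TPM in Col-0 leaves, against 1.00 and 1.01 TPM in Col-0 flowers. Without Col-0 leaf replicate 1 adjusted p in limma was 0.0546 for AOP2 and 0.218 for SUMM2, without Col-0 flower replicate 1 it was 0.0589 and 0.0688, and for SUMM2 it was 0.0884 without Col-0 flower replicate 2. The target of miR840, WHY3, was at 20.4 and 20.3 TPM in dcl234 flowers and 10.1 and 15.7 TPM in Col-0 flowers. It was not called in the mutant (0.65 ± 0.35, SE, adjusted p = 0.252 in limma), and the median of all genes was 0.50.

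Transcripts of the MIR genes were scarce. Of 72 MIR genes of these rows, 34 were above 0 TPM in some library and 14 had a mean of at least 1 TPM. Between Col-0 leaves and Col-0 flowers 3 of the 14 were called higher and 3 lower, against 12.0% and 24.9% of all 19778 genes, and their median log2 difference was -0.66, against -0.31 for all genes. MIR863 had 20.0 and 11.2 TPM in Col-0 leaves, against 0 and 1.61 TPM in Col-0 flowers (3.31 ± 0.48, SE), and MIR850 had 9.35 and 10.97 TPM against 1.15 and 0 TPM (2.92 ± 0.38, SE) in the same order. MIR825 had 15.4 and 3.20 TPM in Col-0 leaves, against 0 and 0.380 TPM in Col-0 flowers (2.82 ± 0.49, SE). The mature miRNAs of all 3 genes were also higher in leaves. All 3 overlap another annotated gene on the same strand, so their TPM may include its reads. The call of MIR825 was lost without either Col-0 flower library (adjusted p = 0.0692 and 0.0626 in limma). Its difference was 1.84 without Col-0 leaf replicate 1 and 3.80 without replicate 2, and that of MIR863 was 2.62 without Col-0 flower replicate 1 and 4.00 without replicate 2.

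MIR839 was at 0 in both Col-0 leaf libraries and at 3.25 and 8.19 TPM in Col-0 flowers (-2.64 ± 0.41, SE, adjusted p = 0.000185 in limma). MIR447b had 1.88 and 0 TPM in Col-0 leaves, against 5.08 and 2.74 TPM in Col-0 flowers (-1.49 ± 0.46, SE). MIR833a had 1.5 and 0 TPM in Col-0 leaves, against 3.22 and 5.59 TPM in Col-0 flowers (-1.74 ± 0.41, SE). The mRNA protocol is not stated to keep strand, so reads of MIR833a cannot be told from those of MIR833b on the opposite strand, and MIR833a and MIR839 each overlap another annotated gene. MIR447b shares similar sequence with MIR447a, so reads may be split between them, and the row of miR447 may hold reads of both hairpins. The mature miR839 and miR447 were lower in leaves, as were these transcripts, whereas miR833a-5p was not called. Among the 8 transcripts not called, MIR822 had 1.72 and 0 TPM in Col-0 leaves, against 1.11 and 1.05 TPM in Col-0 flowers. The mature miR822 was higher in leaves. MIR447a had 0 and 2.96 TPM against 1.01 and 0 TPM in the same order, although miR447a.2-3p was lower in leaves. MIR833b had 8.91 and 0 TPM in Col-0 leaves, against 0 and 0 TPM in Col-0 flowers, and miR833 was higher in leaves. The calls of MIR447b and MIR833a were lost without Col-0 leaf replicate 2 (adjusted p = 0.217 and 0.0505 in limma), without Col-0 flower replicate 1 (0.247 and 0.0527) and without Col-0 flower replicate 2 (0.128 and 0.150).

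In dcl234 flowers limma called 0 of the 14 transcripts, with 1 higher and 1 lower at an unadjusted p under 0.05, against 1.34% of all genes called higher and 0.480% lower. Their median log2 difference was 0.29, against 0.50 for all genes. MIR829 was listed at 0 in all 6 libraries, while MIR839, MIR840, MIR822 and MIR447b were above 0 in both dcl234 libraries. MIR840 overlaps AT2G02750 on the same strand, so its TPM may include reads of that gene. MIR839 had 6.25 and 2.97 TPM in dcl234 flowers, against 3.25 and 8.19 TPM in Col-0 flowers. MIR840 had 1.08 and 3.21 TPM in dcl234 flowers, against 1.91 and 0.480 TPM in Col-0 flowers. MIR822 had 0.820 and 4.22 TPM in dcl234 flowers, against 1.11 and 1.05 TPM in Col-0 flowers. For MIR447b the values were 3.79 and 6.22 TPM in dcl234 flowers and 5.08 and 2.74 TPM in Col-0 flowers. The genotypes overlapped for MIR839, MIR840 and MIR447b, and the higher of the dcl234 values of MIR822 lay above both Col-0 flower libraries and the lower beneath them.

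**Figure D5:**
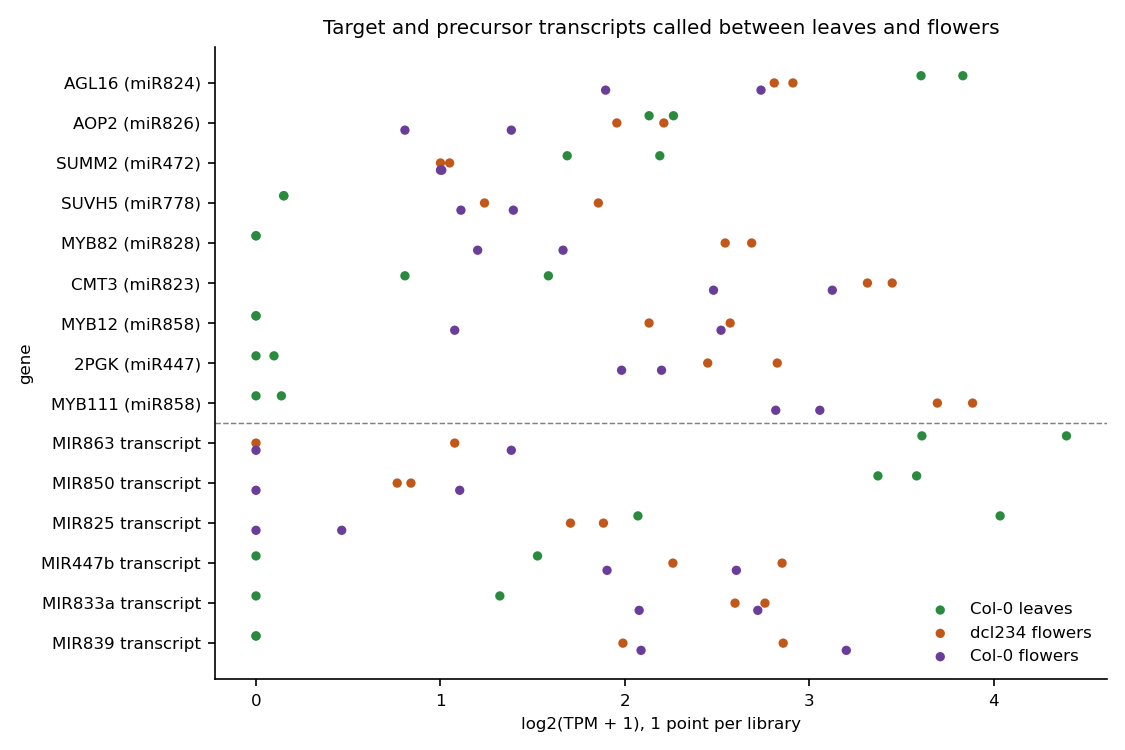
Level of the 9 target transcripts (above the dashed line, with their miRNA) and 6 MIR transcripts (below it) called between Col-0 leaves and Col-0 flowers, on a log2(TPM + 1) axis with 1 point per library for Col-0 leaves, dcl234 flowers and Col-0 flowers. MYB111 and MIR839 lie at or near 0 in leaves, AGL16 and MIR863 lie highest in leaves, and none of the 15 was called between dcl234 flowers and Col-0 flowers.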

How the data were processed

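The authors deposited miRNA levels per family row as RPM (reads-per-million, relative to genome-matching reads). Their reads were aligned with Bowtie to TAIR10 without mismatches and with up to 100 alignments, divided among loci, and assigned to miRBase 21 miRNAs when 20 to 22 nt long. The authors deposited mRNA levels as TPM (transcripts-per-million, RSEM, Araport11). Only 64.5% to 75.0% of RPM values were whole multiples of 1 read (within 0.001 read), so no count test was run. Differences were fitted over all rows with limma 3.58.1 (R 4.3.3, trend) on log2(value + 1), which understates changes of low rows, for rows or genes with a mean of at least 1, with Benjamini-Hochberg adjustment. Each SE is the moderated value of limma, in which the spread is shared over the groups and over rows or genes. It is not the spread of a single row alone. The fit was tested on simulated data. Hairpins were folded with RNAfold 2.7.2 from RefSeq sequences.

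Rows were named by rule: the 10 highest means, up to 12 called rows per direction, and rows with well-known processing or targets. Other arms of these hairpins, miR778 and rows given for low levels were added after their values were seen. Members, targets and lists were chosen with earlier results of these data known. A target gene withheld from reporting was left out of the list and is not reported here. Absolute scaling by spike-ins, tasiRNAs and siRNAs was not used here.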

Additional observations from a re-analysis of the deposited data

How the results depend on the processing

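Of the 16 rows called lower in leaves, all were kept under leave-one-out, a pseudocount of 0.1, quantile normalization, the replicate block and both scalings to the miRNA total, and of the 15 called higher, 14 were kept under leave-one-out and both scalings. Leaving out 1 library gave 14 to 17 higher and 16 to 18 lower calls in leaves, and 18 to 21 higher and 4 to 4 lower calls in dcl234 flowers. When rows had to reach 1 RPM in all 6 libraries, 19 members were tested, with 4 called higher and 5 lower in leaves and 8 higher and 1 lower in dcl234 flowers. Of all 93 such rows, 40.9% were called higher and 14.0% lower in leaves, and 57.0% and 6.45% in dcl234 flowers. In dcl234 flowers, 6 were called higher after quantile normalization, and 5 higher and 8 lower relative to the miRNA total. Scaled to the mean miRNA total, 7 were called higher and 8 lower, against 16.7% and 12.2% of all 156 rows. That scaling was chosen after seeing the data. The cause of these changes was not tested beyond the shift of all rows. Counts of calls in this section that stand without a share of all rows or genes describe the settings only.

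The log2 ratio of the summed RPM in leaves was -0.40 (-0.44 to -0.37 under leave-one-out), -1.09 as a share of the miRNA total and -0.0346 without miR858. That in dcl234 flowers was 0.91 (0.84 to 0.98) and -0.0866 as a share. Rows that were not called and changed sign in leaves, relative to the miRNA total and scaled to its mean, were miR773 (-0.0816 and -0.0672), miR823 (-0.0272 and -0.0123) and miR833a-5p (-0.59 and -0.57, and -0.20 after quantile normalization). In dcl234 flowers, after quantile normalization, relative to the total and scaled to its mean, they were miR831 (-0.53, -0.32 and -0.31), miR833a-5p (-0.72, -0.68 and -0.66), miR858 (-0.0144, -0.0196 and -0.0196), miR863-5p (-0.0817, -0.21 and -0.11) and miR869.2 (-0.18, -0.23 and -0.21). The row of miR447a.2-3p ranged from -0.138 to 0.0714 under leave-one-out, and was above 0 without dcl234 replicate 1 and without Col-0 flower replicate 1. The call of miR839 was also lost with a pseudocount of 0.1 (adjusted p = 0.171 in limma). With that pseudocount, miR822 (-1.64, adjusted p = 0.021 in limma) and miR822-3p (-1.91, adjusted p = 0.0395) were called lower in dcl234 flowers. Relative to the miRNA total, both were called lower too (-2.6, adjusted p = 0.0124 in limma, and -2.82, adjusted p = 0.0272).

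Under leave-one-out, 1 to 3 targets were called higher and 3 to 8 lower in leaves, and 2 to 5 MIR transcripts higher and 1 to 6 lower. Without the filter on low values, 5 MIR transcripts were called higher and 1 lower in leaves, and after quantile normalization 1 was called lower. Single calls in leaves that ended without the filter were those of SUMM2, AOP2, MYB12, MIR447b and MIR833a (adjusted p from 0.0532 to 0.128 in limma), and quantile normalization ended those of SUVH5 (-0.11), MYB12, MIR447b and MIR833a (0.0647 to 0.778). The DCL3 call in dcl234 flowers also ended without the filter (0.0739) and with a pseudocount of 0.1 (0.0681). In dcl234 flowers, 3 MIR transcripts were called higher when only the 4 flower libraries were fitted. The labels do not say whether equal replicate numbers mark the same collection. Deviations of leaves and dcl234 flowers from their means correlated with those of Col-0 flowers at -0.16 and 0.06 (sRNA-Seq) and at 0.03 and 0.04 (mRNA-Seq). Such correlations over rows or genes include counting error and cannot settle whether the libraries were paired. With the replicate number as a block, 15 and 16 members in leaves and 21 and 5 in dcl234 flowers were called higher and lower.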
